A study of Mus musculus with 6 samples.

Results

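The transcripts of 10 neurotrophic factor and receptor genes were compared in the ventral lumbar spinal cord of SOD1G93A mice given a virus for NDNF or for GFP. The genes were chosen by name, and all 10 were found among the 28162 genes of the deposited table. They are the ligands Bdnf, Gdnf and Cntf and the receptors Ntrk2, Ntrk3, Ngfr, Ret, Gfra1, Gfra2 and Cntfr. The filter on low values left 8 of them, and none of these 8 passed the test between the groups, where 0% of all 17480 genes tested passed it. Gdnf, read at most 6 times in any library, was the only member whose groups did not overlap. Treated libraries stood wholly above the controls at 2.32% of the genes below the filter, some of which had reads in too few libraries to separate the groups. The groups did not overlap in either direction at 9.75% of the genes tested.

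All 6 samples came from mice with the SOD1G93A transgene, a mutant superoxide dismutase 1 that gives mice a motor neuron disease used as a model of amyotrophic lateral sclerosis. An adeno-associated virus (AAV) was placed in the intrathecal space on postnatal day 74, and the ventral cord was taken on day 104. The control group received AAV-GFP (3 libraries, described as biological replicates) and the treated group AAV-NDNF (3 libraries), where NDNF is neuron-derived neurotrophic factor. No group without the transgene or without a virus was part of the comparison, and the sources used here do not give the serotype or promoter of the vector or the sex of the animals. Nor do they say how many animals went into a library, so p-values measure only the spread between these samples.

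Neurotrophic factors are secreted proteins that keep neurons alive and shape their axons and synapses. The neurotrophins bind Trk receptor tyrosine kinases and the shared receptor p75. Ligands of the GDNF family bind a lipid-anchored GFRα coreceptor that presents them to the kinase Ret, and CNTF binds a lipid-anchored receptor that recruits the signalling chains gp130 and LIFR. Motor neurons respond to all of these families, and BDNF, GDNF and CNTF are classical survival factors for them.

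Bdnf and Gdnf, the ligands with more than one start site, are shown by the 120 bases before the one start of each that held a match to the first motif below. A gene count adds up transcripts from every start that its annotation holds, and the annotation used for counting is not given. RefSeq (GRCm38.p6, the mm10 assembly) gives 7 start sites for Bdnf and 2 for Gdnf. Of the 10 members, 7 had an entry in the promoter table, with 19 start sites in all. CGTCA, the core of the cyclic AMP response element, was searched on both strands of the 250 bases before each start, as were the TATA box TATAAA and the GC box GGGCGG. The core lay before 2 of the 19 starts, the third of Bdnf and the first of Gdnf, where 17.8% of all 32851 promoters held it. The TATA box lay before 1 of the 19, the same Gdnf start (12.4% of all promoters), and the GC box before 6 (32.7%). The Bdnf window is chr2:109692316-109692435 on the plus strand, and the Gdnf window is chr15:7809928-7810047 on the plus strand. Capitals mark the matches.
Bdnf, the third start: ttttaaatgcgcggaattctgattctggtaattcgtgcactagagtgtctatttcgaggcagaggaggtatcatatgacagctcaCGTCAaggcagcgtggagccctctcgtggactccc
Gdnf, the first start: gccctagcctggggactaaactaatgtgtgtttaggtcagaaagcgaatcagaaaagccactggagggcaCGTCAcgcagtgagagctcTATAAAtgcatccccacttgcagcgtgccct
The core began 35 bases before the Bdnf start and 50 bases before the Gdnf start, and the TATA box of Gdnf began 31 bases before it. The counts do not separate these starts from the others of the same gene. In the GENCODE M21 annotation Gdnf begins at 7810846, downstream of the first RefSeq start at 7810048.

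Values below are normalized read counts, in which 1 read was worth 0.8411 to 1.126. The libraries held 15335789 to 20060987 reads assigned to genes. Ndnf, which checks the labels, lay between 128 and 171.4 in the AAV-GFP libraries and between 673.7 and 7077.1 in the AAV-NDNF libraries. Of the AAV-NDNF libraries, replicate 3 was the lowest. The log2 fold change of Ndnf, 4.27, did not pass the test between the groups (limma, Benjamini-Hochberg adjusted p = 0.53). On the first principal component AAV-NDNF replicate 3 (−52) and AAV-GFP replicate 2 (40.3) were the extremes. The 10 motor neuron markers were all detected in every library and summed to 28940 to 33650 after AAV-GFP and 32010 to 37430 after AAV-NDNF. Most of each sum was Nefh (18858.2 to 26260.8). With each gene weighed alike, their mean log2 level relative to the 6 libraries was −0.08 to 0.03 after AAV-GFP and −0.1 to 0.14 after AAV-NDNF. The 12 dorsal horn neuron markers summed to 717.3 in AAV-GFP replicate 2 and to 1417 to 3020 in the other 5 libraries. Of 9 sensory neuron markers 6 were in the table, and they summed to 84.04 to 132.1 after AAV-GFP and 102.5 to 134.6 after AAV-NDNF. Scn11a, Trpv1 and Prdm12 were at 0 to 3.3, while P2rx3 stood at 40.5 to 75.7 and Pou4f1 at 14.7 to 58. Avil was at 8.9 to 12.8 in controls and 14.6 to 35.1 after AAV-NDNF, groups that did not overlap, as at 9.75% of genes tested. The log2 fold change of Avil was 0.92 (SE 0.49, limma, Benjamini-Hochberg adjusted p = 0.997). In tissue of mixed cells, fewer cells of a type and less RNA per cell cannot be told apart.

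The first question was whether the neurotrophin genes differed between the groups. Bdnf, the ligand of TrkB, was 86.6, 74.3 and 117.5 in AAV-GFP replicates 1 to 3 and 100.1, 103.6 and 113.9 in AAV-NDNF replicates 1 to 3. The AAV-NDNF libraries all lay within the wider range of the controls, of which replicate 2 was lowest and replicate 3 highest. The log2 fold change of Bdnf, taken as treated minus control with a pseudocount of 1, was 0.21 (SE 0.23; limma, Benjamini-Hochberg adjusted p = 0.997). Its 95% confidence interval ran from 0.812 to 1.65 times the control level. Leaving out AAV-GFP replicate 2 gave 0.07, leaving out AAV-GFP replicate 3 gave 0.39, and neither passed. Bdnf lies on chromosome 2 (109674700 to 109727007, plus strand, mm10), and 14.4% of its exon bases are shared with the antisense gene Gm45346, which stood at 11 to 17.1. The sources used here do not say whether reads were counted by strand, so a part of either count could belong to the other.

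Ntrk2 (chromosome 13, 58806569 to 59133970, plus strand) encodes TrkB, the BDNF receptor, which neurons make with its kinase and astrocytes mostly as a form without it. Its level was 6097.4, 5637.8 and 6216.5 after AAV-GFP and 6603.1, 5624.3 and 4865.7 after AAV-NDNF. The highest and the lowest libraries were both AAV-NDNF libraries, so the control values fell between them. The log2 fold change of Ntrk2 was −0.08 (SE 0.13; limma, Benjamini-Hochberg adjusted p = 0.997), and its interval was 0.78 to 1.15 times the control level. Without AAV-NDNF replicate 3 it was 0.03. A gene count adds both forms of TrkB together.

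Ntrk3 (chromosome 7, 78175959 to 78738012, minus strand) encodes TrkC, the receptor of neurotrophin-3. It stood at 1939, 1778.6 and 1895.9 after AAV-GFP and at 1951.2, 1925.8 and 1535.7 after AAV-NDNF. Only AAV-NDNF replicate 3 lay apart from the other 5 libraries. The Ntrk3 log2 fold change was −0.06 (SE 0.12; limma, Benjamini-Hochberg adjusted p = 0.997), with an interval of 0.797 to 1.15 times the control level, and it was 0.05 without that replicate. Ngfr (chromosome 11, 95568818 to 95587735, minus strand) encodes p75, the receptor that all neurotrophins share and that adult motor neurons can make again after injury. Ngfr was 83.9, 104.6 and 99.3 after AAV-GFP and 111, 102.5 and 96.4 after AAV-NDNF. The groups overlapped, at a log2 fold change of 0.11 (SE 0.21; limma, Benjamini-Hochberg adjusted p = 0.997) and an interval of 0.783 to 1.49 times the control level.

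**Figure D1:**
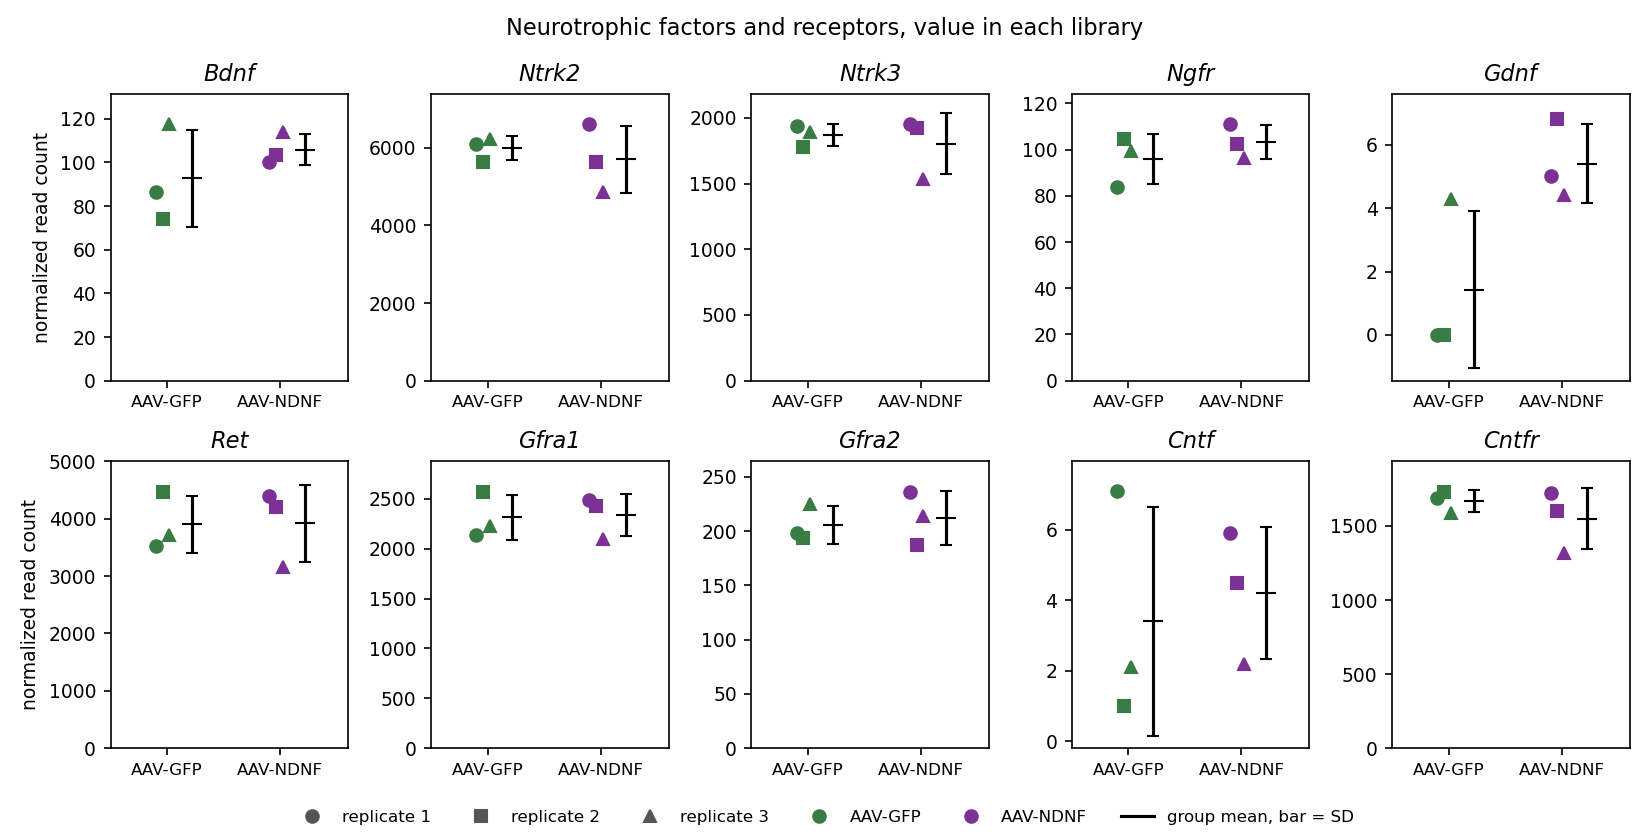
Normalized read count of each of the 10 genes (vertical axes, each from 0 or below and on its own scale) in the 3 AAV-GFP and 3 AAV-NDNF libraries. Points are libraries, the horizontal tick is the group mean and the bar its SD. The groups overlap for every gene but Gdnf, whose AAV-NDNF values (4.4 to 6.8) lie just above its highest control (4.3).

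Among the chosen genes of the GDNF family Ret and Gfra1 had the highest counts, Gfra2 stood far below them, and the ligand Gdnf had only a few reads. Ret (chromosome 6, 118151745 to 118197718, minus strand), the signalling kinase, was 3523.6, 4468 and 3718.1 after AAV-GFP and 4399.6, 4206.4 and 3152.5 after AAV-NDNF. The group means were nearly equal, 3903 ± 499 and 3920 ± 671 (SD, n = 3). The log2 fold change of Ret was 0.00 (SE 0.15; limma, Benjamini-Hochberg adjusted p = 0.999), with an interval of 0.798 to 1.25 times the control level.

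Gfra1 (chromosome 19, 58235604 to 58455909, minus strand), the coreceptor that binds GDNF, was 2140.8, 2570.2 and 2231.3 after AAV-GFP and 2487, 2423.6 and 2095.5 after AAV-NDNF. Its means were 2314 ± 226 and 2335 ± 210 (SD, n = 3). The log2 fold change of Gfra1 was 0.01 (SE 0.12; limma, Benjamini-Hochberg adjusted p = 0.997), and its interval of 0.843 to 1.21 times the control level was the narrowest of the 8 on the log2 scale. The antisense gene Gm16277 shares 7.6% of the exon bases of Gfra1 and stood at 156.5 to 249.7. Gfra2 (chromosome 14, 70890120 to 70979838, plus strand), the coreceptor of neurturin, was 198.2, 193.5 and 225.4 after AAV-GFP and 236.3, 187 and 213.6 after AAV-NDNF. The AAV-NDNF libraries of Gfra2 lay on both sides of the controls, at a log2 fold change of 0.04 (SE 0.17; limma, Benjamini-Hochberg adjusted p = 0.997) and an interval of 0.798 to 1.33 times the control level.

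Gdnf (chromosome 15, 7810846 to 7837575, plus strand), the founding ligand of the family, did not reach the filter of 10 normalized counts in 3 libraries. It had 0, 0 and 4 reads in AAV-GFP replicates 1 to 3 and 6, 6 and 4 reads in AAV-NDNF replicates 1 to 3. In normalized counts these were 0, 0 and 4.3 against 5.0, 6.8 and 4.4, so that every AAV-NDNF library lay above every control. The lowest AAV-NDNF library and the highest control differed by 0 reads and were set apart by their size factors alone. Summed over the libraries, 4 reads of 52108579 stood against 16 of 51339547, a rate ratio of 4.06 with an exact 95% interval of 1.31 to 16.7. That interval covers counting error only, compares these libraries and not the conditions, and takes no account of the spread between animals. The exact two-sided permutation p on log2(value + 1) was 0.1, the smallest that 3 against 3 libraries can give. In limma without the filter Gdnf had an adjusted p of 0.919, and in the edgeR quasi-likelihood test on recovered reads an adjusted p of 0.893. The authors' deposited table gives Gdnf a log2 fold change of 1.97 (SE 1.57) with a DESeq2 adjusted p of 0.9999. Of the 10682 genes below the filter, 2.32% likewise had every AAV-NDNF library above every control. Those 10682 include genes with reads in too few libraries to separate the groups, so the share among genes read as often as Gdnf is not given by it.

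Cntf and its receptor form the cytokine branch. Cntfr (chromosome 4, 41657498 to 41697089, minus strand), the lipid-anchored CNTF receptor, was 1691.7, 1730.7 and 1588.3 after AAV-GFP and 1720.8, 1603.7 and 1319.9 after AAV-NDNF. Again AAV-NDNF replicate 3 was the lowest, while the other 5 libraries lay close together. The log2 fold change of Cntfr was −0.12 (SE 0.12; limma, Benjamini-Hochberg adjusted p = 0.997), and the interval was 0.765 to 1.11 times the control level. The Cntfr difference was −0.01 once AAV-NDNF replicate 3 was left out, and −0.2 once AAV-NDNF replicate 1 was left out.

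Cntf itself (chromosome 19, 12763660 to 12765632, minus strand), which in the body is made mainly by Schwann cells and astrocytes, had 8, 1 and 2 reads after AAV-GFP and 7, 4 and 2 reads after AAV-NDNF. The rate ratio was 1.2 with an exact 95% interval, again of counting error only, of 0.496 to 2.96. The exact two-sided permutation p was 0.6. The difference of the mean log2(value + 1) of Cntf was 0.42, and −0.03 without AAV-GFP replicate 2. This count is uncertain for a structural reason: in GENCODE M21, 847 of the 1073 exon bases of Cntf (78.9%) are also exon bases of Zfp91 on the same strand. Zfp91, a zinc finger protein gene, stood at 3102.9 to 3670.3. The sources used here do not say how reads that match both genes were assigned, so the Cntf count cannot be read as the level of its transcript.

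Across the 8 members tested, 0 passed the threshold of an adjusted p under 0.05 in limma, and 0% of all 17480 genes tested did. At an unadjusted p under 0.05 the members again counted 0 of 8, where 4.68% of all genes tested fell below it. On recovered reads the edgeR quasi-likelihood test called 0 genes and DESeq2 called 56, with 0 members in either. The groups did not overlap at 0 of the 8 members and at 9.75% of all genes tested. In the authors' deposited table, 0 of the 10 members had a DESeq2 adjusted p under 0.05, against 0.266% of 20315 genes. Of the 8 fold changes 4 lay below 0 and 4 above, with a median of 0.01 where all genes tested had 0.000828. Ntrk2, Ntrk3, Ret, Gfra1 and Cntfr had intervals that reached at most 0.32 on the log2 scale on either side of their estimate, whereas the less abundant Bdnf and Ngfr had 0.51 and 0.46. A p that misses the threshold does not show equal levels. Nor are these intervals limits of detection. The Ndnf log2 fold change of 4.27 did not pass either (limma, Benjamini-Hochberg adjusted p = 0.53). Ndnf ranged from 673.7 to 7077.1 within AAV-NDNF, a spread that no tested member had, so it sets no limit for the members.

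**Figure D2:**
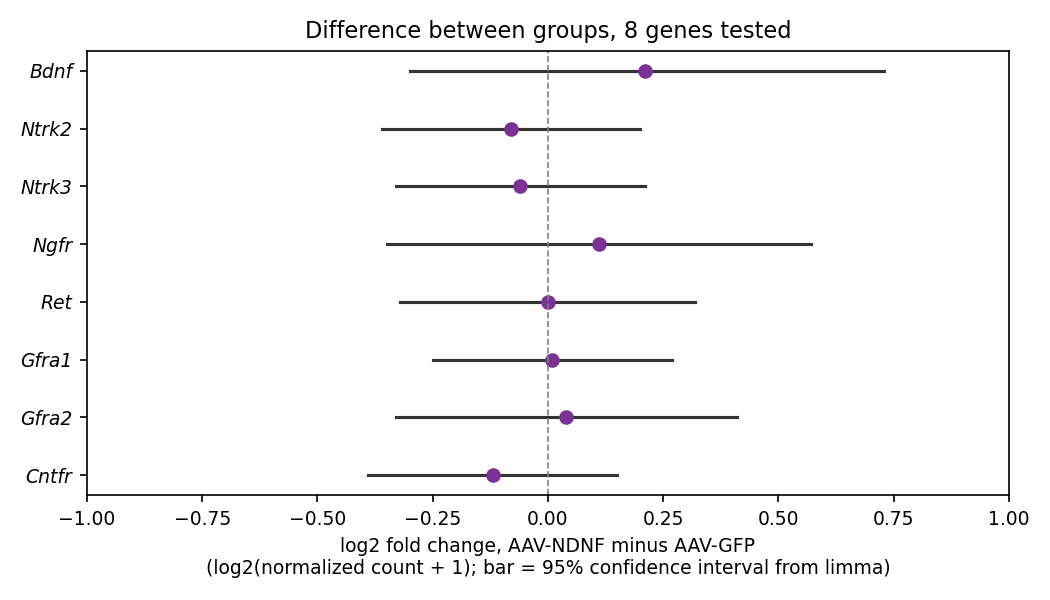
Log2 fold change (horizontal axis, treated minus control, from normalized counts with 1 added) of the 8 genes tested. Points are estimates and bars the 95% confidence intervals from limma, all of which include 0, the widest being that of Bdnf (−0.3 to 0.73).

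Levels were next compared between the genes, as normalized counts per kilobase of merged exons, averaged over all 6 libraries. Cntfr (578.4 ± 55.3, SD, n = 6) and Ret (578.4 ± 78.2) were highest, at percentiles 92.3 and 92.2 of the genes tested. Their order could not be told, since each was the higher in 3 of 6 libraries. Gfra1 followed at 424.5 ± 35.7 and Ntrk2 at 302.8 ± 31.3. Ntrk3 (60.91 ± 5.32) and Gfra2 (59.05 ± 5.48) were again indistinguishable, each higher in 3 of 6 libraries. Ngfr stood at 28.91 ± 2.66 and Bdnf at 15.98 ± 2.64. Gdnf was at 0.928 ± 0.758. Cntf, at 3.547 ± 2.26 over all its exon bases, was given no place, since most of those bases are shared with Zfp91. The ranges of Ret and Gfra1 overlapped as well, with Ret the higher in 6 of 6 libraries, and the other neighbours in this order did not overlap. The 7 receptors stood above the ligands Bdnf and Gdnf.

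The ranks changed in 1 place under another definition of length, and the near ties held for merged exons only. Ntrk2 has many alternative exons, 19292 bases when merged and 8744 in its longest transcript. Per kilobase of the longest transcript Ntrk2 was 668, above Gfra1 at 500.9 and so 1 place higher. Cntfr, at 806.6, then stood above Ret at 716.9, and Ntrk3, at 93.27, above Gfra2 at 60.19. Within libraries, the ratio of Ntrk2 to Ntrk3 per kilobase of merged exons was 5 ± 0.112 after AAV-GFP and 4.94 ± 0.36 after AAV-NDNF (SD, n = 3). The ratio of Ret to Gfra1 was 1.36 ± 0.0416 and 1.35 ± 0.116 (SD, n = 3), and that of Gfra1 to Gfra2 was 7.32 ± 1.13 and 7.17 ± 1.07 (SD, n = 3). Each of these 3 ratios differed between the groups by less than its spread.

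**Figure D3:**
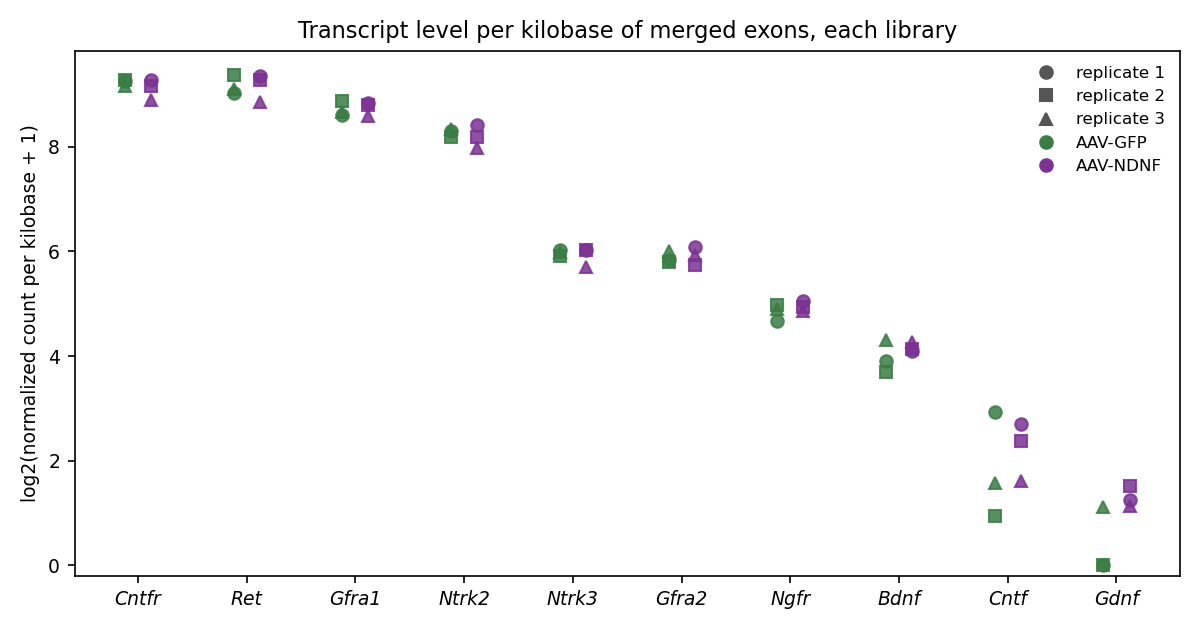
Level of the 10 genes as log2(normalized count per kilobase of merged exons + 1) in each of the 6 libraries, ordered by mean. Colours are groups and symbols replicates, and the libraries of a gene lie close together except for Cntf and Gdnf, the genes with the fewest reads.

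The libraries in which members were high or low were described next. AAV-NDNF replicate 3 was the lowest library for 5 of the 8 members tested: Ntrk2, Ntrk3, Ret, Gfra1 and Cntfr. The same library was lowest for 26.3% of all genes tested, more than any other. In it these 5 genes stood 0.15 to 0.30 below their own mean on the log2 scale, and Ret was the lowest at −0.3. The other 3 members did not share the pattern, as Bdnf stood at 0.21 above its mean there, Gfra2 at 0.04 and Ngfr at −0.04. AAV-NDNF replicate 1 was the highest library for Ntrk2, Ntrk3, Ngfr and Gfra2, and AAV-GFP replicate 2 for Ret, Gfra1 and Cntfr. In AAV-NDNF replicate 3 the motor neuron markers summed to 37430, the highest of the 6 libraries, and the astrocyte markers to 178400, where the other 5 ranged from 172800 to 241900. The endothelial and mural cell markers (6496, against 7316 to 8539 in the other 5) and the oligodendrocyte precursor markers (6728, against 6926 to 8023) had their lowest sums there. With each gene weighed alike, motor neuron markers were again highest in AAV-NDNF replicate 3 (mean log2 level 0.14 relative to the 6 libraries). The astrocyte markers were lowest in that library on this scale (−0.14, against −0.13 in AAV-NDNF replicate 2). The part of cell content in the low receptor values was not tested.

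**Figure D4:**
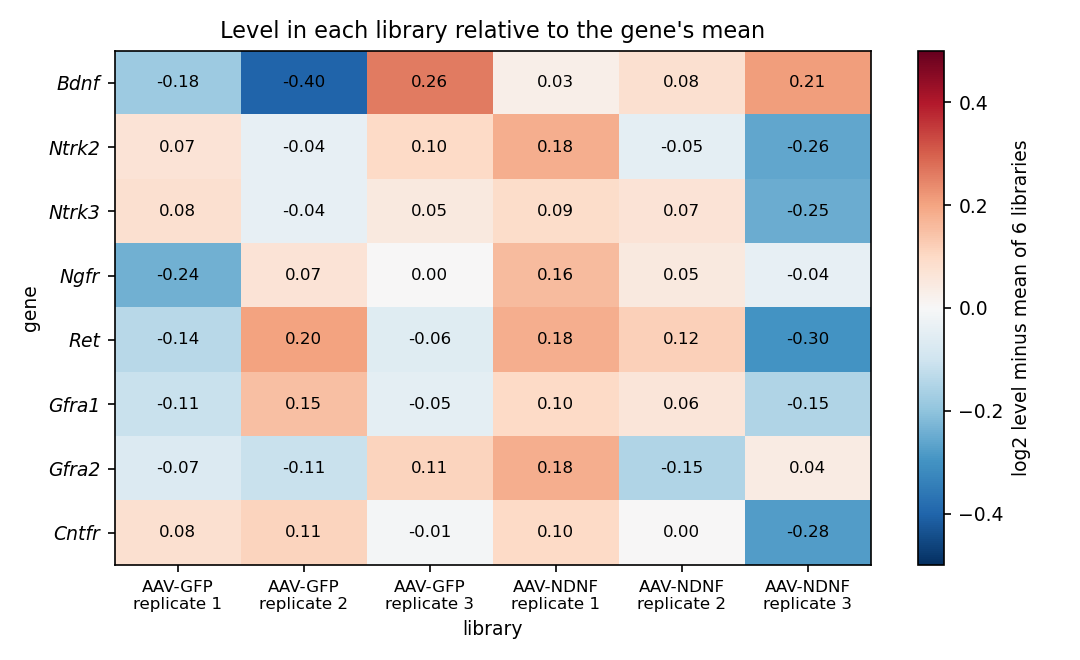
Log2 level of the 8 genes tested (rows) in each library (columns) minus the mean of that gene over the 6 libraries. Red is above and blue below the mean, and the column of AAV-NDNF replicate 3 is the lowest for Ntrk2, Ntrk3, Ret, Gfra1 and Cntfr (−0.15 to −0.3).

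Bdnf was lowest in AAV-GFP replicate 2, at 0.4 below its mean on the log2 scale. The summed dorsal horn neuron markers were also lowest in that library (717.3). In AAV-GFP replicates 1 to 3 these markers summed to 2812, 717.3 and 3020, with Bdnf at −0.18, −0.4 and 0.26 relative to its mean. In AAV-NDNF replicates 1 to 3 they summed to 1417, 1983 and 2756, with Bdnf at 0.03, 0.08 and 0.21. The part of dorsal horn content in the low Bdnf value was not tested.

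The genes whose log2 values followed a member most closely over the 6 libraries were listed for Cntfr and Bdnf, the members with the smallest unadjusted p (0.359 and 0.382 in limma). For Cntfr they were Ankfy1 (Pearson r = 0.999), Pde11a (0.998) and Gm16034 (0.994). For Bdnf they were Bicd1 (0.995), Bhlhe22 (0.993) and Ccer2 (0.992). With 6 points and 17479 genes compared, such values are common: 252 genes had an r over 0.95 with Cntfr and 33 with Bdnf. They describe these libraries only.

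The rest of the 3 pathways was described through lists of named genes. Ntf3, the ligand of TrkC, was below the filter, at 0 to 3.6 in controls and 2.2 to 12.4 after AAV-NDNF. Of 8 further neurotrophin receptors and coreceptors tested, 0 passed, and 1 had an unadjusted p under 0.05 (4.68% of all genes tested). This was Sorcs3, a sorting receptor of the sortilin family, at 257.1, 217 and 270.2 against 367.5, 354.8 and 292.5 (log2 fold change 0.44, SE 0.16; limma, Benjamini-Hochberg adjusted p = 0.915). Maged1, a p75-binding adaptor, was 7558 ± 880 against 8578 ± 413, and Lingo1, a partner of p75 in the Nogo receptor complex, was 877.5 ± 12.5 against 959.3 ± 134 (SD, n = 3).

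Of 13 Trk adaptors and proneurotrophin-processing genes tested, 0 passed and 0 had an unadjusted p under 0.05, at a median log2 fold change of −0.07. Ptpn11, the phosphatase SHP2, was 4943 ± 237 against 4184 ± 612 (SD, n = 3), Furin, a proprotein convertase, was 585.1 ± 54.2 against 479.6 ± 90.1, and Plat, the tissue plasminogen activator, was 1474 ± 258 against 1285 ± 58.5. The 9 immediate early and activity genes, among which Arc, Fos and Npas4 are known to respond to neuronal activity as Bdnf does, also gave 0 at an unadjusted p under 0.05 (median −0.03). In that list Fos was 384.3 ± 49.1 against 333.7 ± 94.4, Dusp6 476.9 ± 65.8 against 433.1 ± 20.5 and Vgf 2480 ± 136 against 2347 ± 71.2. In the GDNF family, 6 further genes were tested and 0 passed. Sdc3, a heparan sulfate proteoglycan, was 7444 ± 881 against 6108 ± 1150, Gfra4, the persephin coreceptor, 236.7 ± 78.6 against 284.1 ± 44.1, and Ncam1, an alternative GDNF receptor, 5261 ± 312 against 4888 ± 367. Gfra3, the artemin coreceptor of sensory neurons, was listed at 0 in 5 libraries and at 1.1 in the other.

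In the CNTF and LIF cytokine family 0 of 13 tested genes passed. Of the 13, 12 had a fold change below 0, the median was −0.29, and 3 had an unadjusted p under 0.05, all lower. Of all genes tested, 4.68% had an unadjusted p under 0.05 in limma. Osmr, the oncostatin M receptor chain, was 547.2, 555.1 and 521.2 in controls and 400.3, 453.9 and 308.9 in treated libraries (log2 fold change −0.50, SE 0.16; limma, Benjamini-Hochberg adjusted p = 0.781). Socs3, the feedback inhibitor induced by STAT3, was 265.1, 152.5 and 239.3 against 176.6, 126.1 and 104.1 (−0.68, SE 0.26; adjusted p = 0.964). Osm, the ligand of Osmr and a product of myeloid cells, was 37.5, 19.5 and 10.7 against 6.7, 2.3 and 13.1 (−1.57, SE 0.69; adjusted p = 0.997). The groups did not overlap at 2 of the 13, among them Osmr, and at 9.75% of all genes tested. Those of Socs3 and Osm did overlap. Of the chains that pair with Cntfr, neither had an unadjusted p under 0.05: Il6st (gp130) was 3801 ± 589 against 3324 ± 596 and Lifr 1837 ± 297 against 1736 ± 178 (SD, n = 3). Markers of 2 glial cell types were given beside this list, and none of them passed the test. The 10 microglial markers summed to 20280 to 21830 in controls and 14390 to 17140 after AAV-NDNF, all 10 had fold changes below 0, and 7 had an unadjusted p under 0.05. The 10 astrocyte markers summed to 197800 to 241900 and 172800 to 198700, all 10 lay below 0, and 1 had an unadjusted p under 0.05. Of the 10 oligodendrocyte markers 4 lay below 0 and 6 above. The part of these cells in the values of the cytokine list was not tested.

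Other secreted trophic factors gave 0 passes among 8 tested, with 2 at an unadjusted p under 0.05 (4.68% of all genes tested). Ptn (pleiotrophin), a heparin-binding growth factor, was 1826 ± 67.8 against 2365 ± 440 (SD, n = 3; log2 fold change 0.36), and Fgf2, a fibroblast growth factor made by astrocytes, was 906.2 ± 67.6 against 748.3 ± 74.3 (−0.28). Neither passed in limma, with Benjamini-Hochberg adjusted p of 0.993 and 0.997. Vegfa, the vascular growth factor that is also trophic for motor neurons, was 1264 ± 113 against 1075 ± 90.1.

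**Figure D5:**
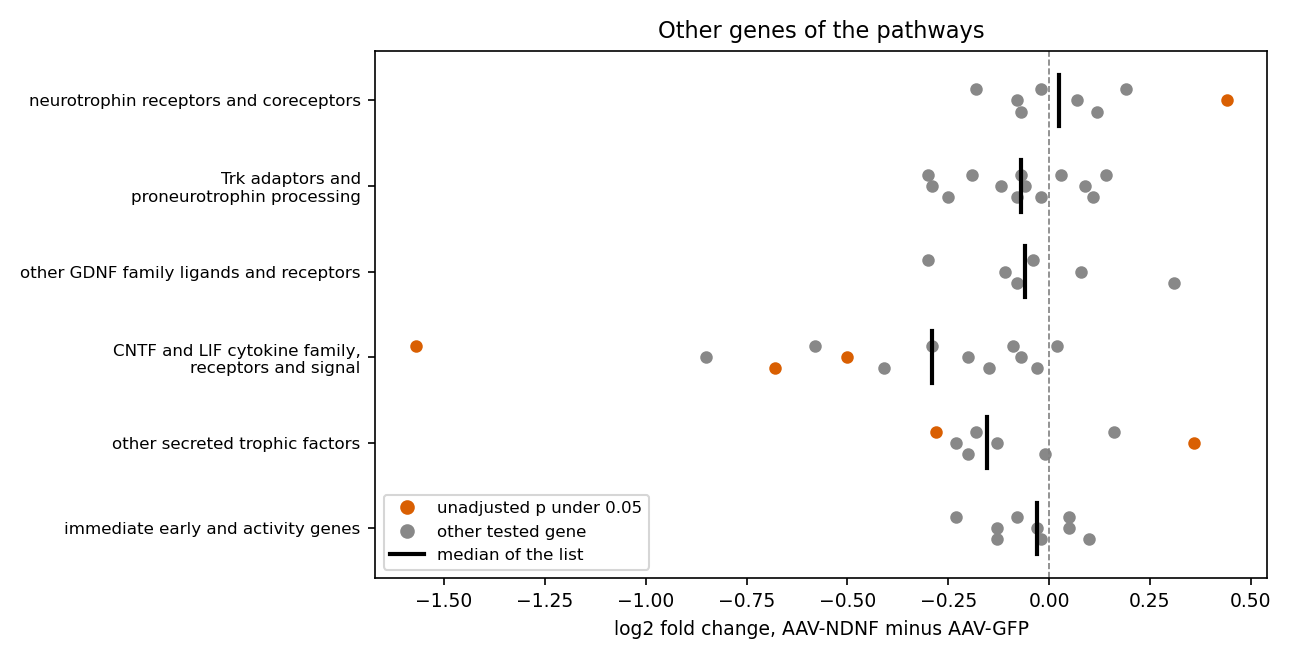
Log2 fold change (horizontal axis, AAV-NDNF minus AAV-GFP) of the tested genes in 6 lists of related genes. Points are genes, orange where the unadjusted p was under 0.05, and the black bar is the median of the list, which lies farthest below 0 for the CNTF and LIF cytokine family (−0.29).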

How the data were processed

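Ventral lumbar cord RNA was profiled by polyadenylated RNA sequencing in 6 libraries. Per the submitters' processing notes, cutadapt, HISAT2, HTSeq, DESeq2 and mm10 were used; the sources used here give no versions, annotation or strand setting. The authors deposited a normalized signal per library, gene read counts divided by a size factor; 100% of values were whole multiples of 1 read (tolerance 0.001), so reads were recovered. Per the file headers, they also deposited log2 fold changes, a Wald score and p-values from DESeq2.

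The main test was limma (trend, robust, two-sided) on log2(value + 1) over 17480 of 28162 genes, those reaching 10 normalized counts in 3 or more libraries, with Benjamini-Hochberg adjustment over all genes tested and a threshold of 0.05. Members below the filter were compared by exact permutation. Exon lengths came from GENCODE M21, which matched 98% of symbols once. Every pair of libraries within a group differed by more than sampling noise. The members and lists were chosen with earlier results of these data known. Named genes were the members, the 3 genes of smallest p in each list, the genes most like a member and label checks. Genes sharing exons with a member, Ntf3, Arc, Npas4, Gfra3, Il6st, Lifr and the sensory neuron markers found are named besides. Alternatives covered scaling (upper quartile, TMM), filter, pseudocount, tool (edgeR, DESeq2), a replicate block, a dorsal horn covariate, gene length and leaving out libraries. A few list genes are not reported here. The fits were tested on simulated counts that gave every gene the same dispersion, a simpler setting than these libraries. Tools were limma 3.58.1, edgeR 4.0.16 and DESeq2 1.42.0 in R 4.3.3, with scipy 1.17.1 and matplotlib 3.10.9.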

Additional observations from a re-analysis of the deposited data

How the results depend on the processing

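In the 16 alternative fits 0 members were called. The number of genes called, 0 in limma, was 3 with no filter, 56 in DESeq2 on recovered reads, 7 with the dorsal horn covariate, 6 with the replicate block and 0 to 43 when single libraries were left out (43 without AAV-GFP replicate 2, 11 without AAV-NDNF replicate 3, 1 without AAV-NDNF replicate 1). With the replicate block 0 members were called. Same-numbered libraries did not deviate together (r of −0.09, 0.05 and 0.08), but 3 libraries per group cannot show whether the numbers pair them. Of 156 member values under alternatives 8 turned from the sign they had, each when a library was left out; Ret, at 0.00, had no sign to keep and ranged from −0.09 to 0.15 when libraries were left out. The ranges were −0.04 to 0.09 for Gfra1, −0.04 to 0.13 for Gfra2, −0.19 to 0.03 for Ntrk2, −0.12 to 0.05 for Ntrk3 and −0.03 to 0.99 for Cntf. The log2 difference of Gdnf was 2.45 with a pseudocount of 0.5 and 0.75 with 5, since 0 to 6 reads per library set its size, and 1.46 to 2.66 with a library left out. Without the filter its unadjusted p in limma was 0.0429, and 0.0334 with the replicate block. The unadjusted p of Gdnf on recovered reads was 0.184 in the edgeR quasi-likelihood test and 0.209 in DESeq2. Depth limits Gdnf and Cntf: 3 reads, the limit that a count of 0 allows, came to 2.52 to 3.38 normalized counts.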
